A study of Rattus norvegicus with 6 samples.

Results

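The genes described here control phosphate and pyrophosphate at the surface of mineralizing cells, together with an inhibitor of mineral growth. They are Alpl, Phospho1, Enpp1, Ankh, Slc20a1, Slc20a2 and Mgp. The 7 genes were chosen by name from the 18923 genes of the tables, and each name matched a single identifier. Earlier results of these data were known at the choice, so counts set beside shares of all genes are a description. RNA-Seq was run on primary chondrocytes of 24-h-old female wild-type Sprague-Dawley rats, grown in DMEM with 10% FBS and 1% penicillin-streptomycin. Before RNA-Seq, control cells (CON) were kept for 24 h in high-glucose DMEM with 10% FBS. Treated cells (RA) were kept for 24 h in this medium with 1 µM all-trans retinoic acid. There were 3 samples per group, at passage 1 or 2, which the methods call independent without saying that they came from separate animals, so p-values measure the spread between these samples, and no vehicle is named for CON. Levels are given as FPKM, reads corrected for gene length and library total, which allows levels of different genes to be compared, and group means stand with their SD over the 3 samples. Changes (log2FC) are on the log2 scale, RA over CON, and were fitted to the read counts with the quasi-likelihood method of edgeR, with p-values adjusted by Benjamini-Hochberg over the 13438 genes tested. To be called a DEG, a gene needed an adjusted p below 0.05 together with a log2FC above 0.58 or below -0.58, that is, 1.5-fold.

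Mineral forms in cartilage when inorganic phosphate and calcium build up in matrix vesicles and on collagen, and pyrophosphate blocks the growth of the crystals. Alpl encodes tissue-nonspecific alkaline phosphatase, which splits pyrophosphate into phosphate, and Phospho1 encodes a phosphatase that frees phosphate from phosphocholine and phosphoethanolamine inside vesicles. Enpp1 makes pyrophosphate from extracellular ATP, and Ankh is needed for the release of ATP and pyrophosphate from the cell. Slc20a1 and Slc20a2 encode the sodium-phosphate cotransporters PiT-1 and PiT-2, which carry phosphate into the cell. Mgp encodes matrix Gla protein, a secreted inhibitor of calcification that depends on vitamin K. In growth cartilage, mineralization belongs to the hypertrophic stage.

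None of the 7 genes was lost to the low-count filter. The DEGs among them were Ankh and Mgp, both higher in RA, so 2 of the 7 were DEGs beside 4.96% of all genes tested (2.67% higher and 2.29% lower in RA). Slc20a1 and Slc20a2 also rose and Alpl fell, each with an adjusted p below 0.05 but a change of less than 1.5-fold. By adjusted p alone, 5 of the 7 were called beside 9.82% of all genes, 4 of them higher in RA and 1 lower, beside 5.31% and 4.5% of all genes. Enpp1 and Phospho1 did not pass the test. The FPKM values of CON and RA did not overlap for any of the 7 genes, which also holds for 32.2% of all genes tested. The median log2FC of the 7 genes was 0.32, and that of all genes was -0.0057.

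**Figure D1:**
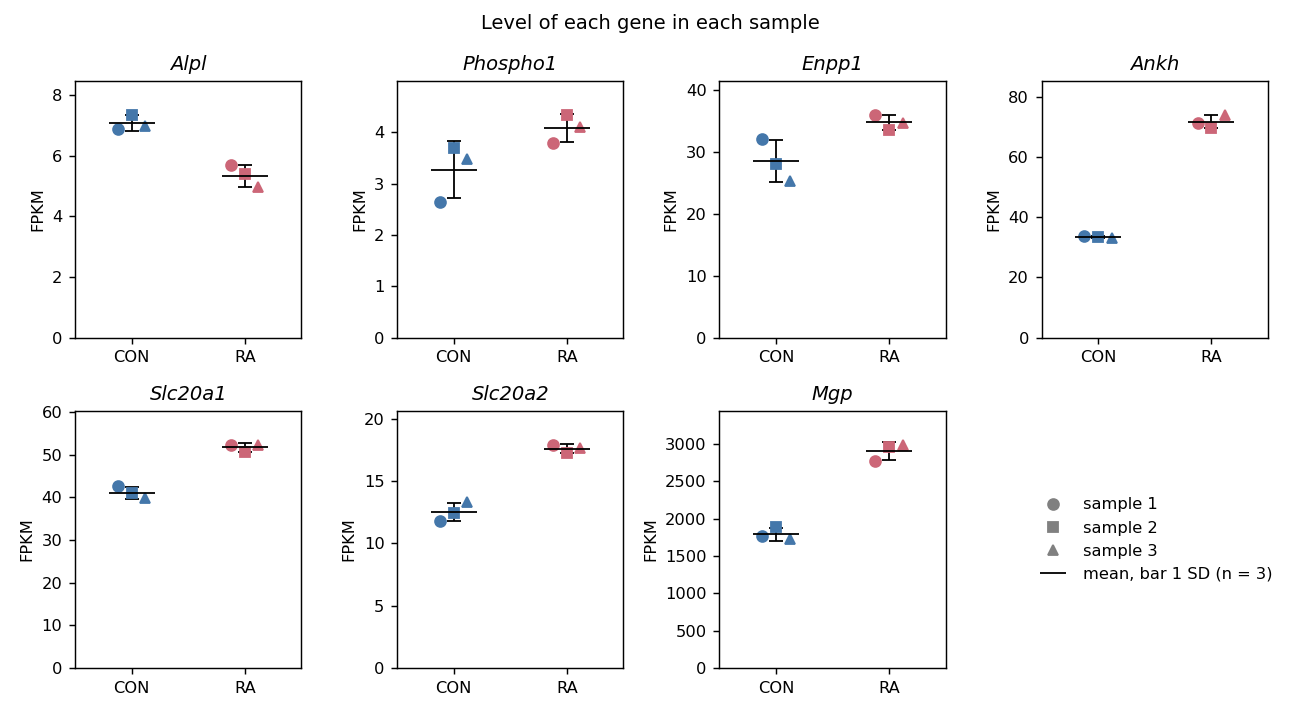
Level of each of the 7 genes in each sample, in FPKM on axes that start at 0. Points are samples 1, 2 and 3 of CON (blue) and RA (red), the line is the group mean and the bar is 1 SD (n = 3). RA samples lie above all CON samples in 6 panels and below them in that of Alpl, and the panel of Ankh goes from between 33.1 and 33.8 to between 69.7 and 74.0 FPKM.

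Total counts ran from 30170909 to 38007486 in CON and from 29370025 to 30952882 in RA. CON sample 1 stood apart from the other CON samples. Its mean rank correlation with the rest of its group was 0.988 across genes, against 0.991 and 0.993 for the other CON samples and 0.996 for each RA sample. Over all genes tested, 4.96% were DEGs, 2.67% higher and 2.29% lower in RA, and the marker counts that follow stand beside these shares. All 8 chondrocyte markers were tested and expressed, and 7 of them were DEGs, each lower in RA. Their summed level ran from 6478 to 8507 FPKM in CON and from 4085 to 4406 in RA. In these bulk samples, fewer cells of a type and less RNA per cell cannot be told apart. Of 10 osteoblast and osteocyte markers, 6 were tested and 1, Ibsp, was a DEG. Their summed level of 2416 to 3417 FPKM in CON and 3369 to 3592 in RA is nearly all Col1a1, which is also in the fibroblast list and had a mean of 2976 FPKM in CON and 3478 in RA, while Bglap had at most 8 reads in any sample. The 8 skeletal muscle markers summed to 4.73 to 6.04 FPKM in CON and 7.06 to 7.98 in RA, of which Des made up most. Myod1 had 7, 4 and 7 reads in CON and 25, 22 and 17 in RA, so it passed the low-count filter only through RA, and its call as a DEG is not used. The 8 endothelial markers summed to 14.7 to 15.9 FPKM in CON and 9.40 to 9.97 in RA, with 1 DEG lower in RA, Erg. Nearly all of this was Erg, with means of 8.26 and 3.25 FPKM in CON and RA, and Egfl7, with 6.81 and 6.32. Cdh5, Kdr, Vwf and Tek had at most 1, 5, 10 and 23 reads in any sample, and Emcn had 0 reads in all. The 8 fibroblast and perichondrium markers summed to 3850.2 to 5030.5 FPKM in CON and 4982 to 5229 in RA, with 1 DEG lower in RA, Postn. By adjusted p, 3 of these 8 were higher in RA, Pdgfra (0.44), Twist1 (0.43) and Prrx1 (0.49), and 2 were lower, Postn (-1.28) and Dcn (-0.41). By this measure, 5.31% of all genes tested were higher and 4.5% lower in RA. Of the 8 macrophage and 8 osteoclast markers, 4 and 2 were tested with edgeR and 0 were DEGs or passed the adjusted p. The macrophage sums were 13.7 to 14.9 FPKM in CON and 16.4 to 17.7 in RA, mostly Cd14 (means 12.9 and 15.3). Ptprc and Mrc1 had at most 5 and 6 reads in any sample. The osteoclast sums were 28.4 to 33.4 FPKM in CON and 28.4 to 30.9 in RA, nearly all Ctsk and Acp5. Calcr had 0 reads in all samples. The part of these markers in the changes below was not tested.

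The phosphatases come first. Alpl (ENSRNOG00000013954) had 6.87, 7.36 and 6.99 FPKM in CON samples 1, 2 and 3, and 5.68, 5.40 and 4.96 FPKM in RA samples 1, 2 and 3. Every RA sample was below every CON sample. The mean went from 7.07 ± 0.256 to 5.35 ± 0.364 FPKM, a log2FC of -0.42 (standard error, SE, 0.0895, adjusted p = 0.0219, edgeR). RA cells thus had 0.749 times the Alpl level of CON, and the 95% interval of the log2 change, -0.62 to -0.21, reached past the 1.5-fold limit. The direction held on leaving out any sample, but the adjusted p was above 0.05 without CON sample 2 (-0.39, adjusted p = 0.0949, edgeR), RA sample 1 (-0.46, 0.0606), RA sample 2 (-0.43, 0.0912) or RA sample 3 (-0.37, 0.119), in a range of 0.00294 to 0.119 over all alternatives. In those fits, in the same order, 721, 693, 680 and 657 of all genes passed, against 1319 with all samples.

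Phospho1 (ENSRNOG00000005569), the phosphatase of the vesicle lumen, had the lowest level of the 7 genes. It had 2.64, 3.70 and 3.47 FPKM in the CON samples and 3.79, 4.34 and 4.11 FPKM in the RA samples, from 162 to 264 reads per sample. CON sample 1 was the lowest and lay apart from the other CON samples, which were close to RA sample 1. The means were 3.27 ± 0.558 and 4.08 ± 0.277 FPKM. The log2FC of 0.31 (SE 0.153, adjusted p = 0.27, edgeR) did not pass the test, and its 95% interval ran from -0.045 to 0.66, which includes 0. Without CON sample 1 the value was 0.17 (adjusted p = 0.425, edgeR).

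The sequences just upstream of Alpl, which fell, and Ankh, which rose most, are shown because these genes moved in opposite directions. They are RefSeq sequences of the rat assembly GRCr8, not the Rnor_6.0 build that the submitters' processing notes name, and 3 of the 7 genes, Alpl, Phospho1 and Ankh, had an entry. Only bases before the start of the annotated gene are shown, 5′ to 3′ on the strand of the gene, and capitals mark the GC box GGGCGG, in either orientation.
Alpl, chr5:155289786-155290035, minus strand: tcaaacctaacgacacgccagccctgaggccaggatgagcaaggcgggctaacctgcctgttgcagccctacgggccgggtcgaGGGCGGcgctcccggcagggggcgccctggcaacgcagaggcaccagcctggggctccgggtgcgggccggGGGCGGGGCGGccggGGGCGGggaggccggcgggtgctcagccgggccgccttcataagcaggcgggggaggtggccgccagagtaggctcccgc
Ankh, chr2:79883201-79883349, plus strand: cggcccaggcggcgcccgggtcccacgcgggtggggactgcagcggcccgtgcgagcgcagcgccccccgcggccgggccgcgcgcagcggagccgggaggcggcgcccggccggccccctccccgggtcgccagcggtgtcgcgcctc

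The 250 bases of Alpl hold 4 GC boxes, a pair of which overlap by 1 base, and 76% of the bases are G or C. The stretch of Ankh is shorter, 149 bases, because the transcript start that its RefSeq window is placed on lies 101 bases inside the annotated gene. It holds no whole GC box, and 87.2% are G or C, so the box counts of the shown stretches are not comparable. The windows searched run over 300 bases, from 250 bases before to 50 bases after the transcript start they are placed on, and in Ankh 151 of these bases lie in the annotated gene. GGGCGG occurred in the windows of Alpl, Phospho1 and Ankh and in 33.1% of 33469 rat promoters. The 2 GC boxes in the Ankh window begin at the last base shown and just inside the gene. Neither AGGTCA nor AGTTCA, the core motifs read by retinoid receptors, was found on either strand of the 3 windows; they occurred in 16.2% and 14.5% of all promoters. A direct repeat of AGGTCA with a spacer of 5 bases was found in 3 of the 33469 promoters and in none of the 3 genes. These are matches of letters in short windows and say nothing of the binding of a factor.

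Among the genes of pyrophosphate supply, Ankh (ENSRNOG00000010960) had the largest change of the 7 genes. It had 33.8, 33.3 and 33.1 FPKM in the CON samples and 71.3, 69.7 and 74.0 FPKM in the RA samples. The spread within either group was small beside the gap between the groups, which were 33.4 ± 0.347 and 71.7 ± 2.2 FPKM. The log2FC was 1.09 (SE 0.0564, adjusted p = 2.38e-05, edgeR), a 2.13-fold level in RA. It lay between 1.06 and 1.11 under all alternatives, and Ankh was a DEG in each. In rank of mean FPKM among all genes it moved from 2289 in CON to 1049 in RA.

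Enpp1 (ENSRNOG00000013994) was expressed at a level like that of Ankh in CON. Its FPKM values were 32.1, 28.2 and 25.4 in the CON samples and 36.1, 33.5 and 34.8 in the RA samples. CON sample 1 was the highest of its group and lay close to the RA samples. The means of 28.5 ± 3.34 and 34.8 ± 1.26 FPKM gave a log2FC of 0.27 (SE 0.0839, adjusted p = 0.084, edgeR; 95% interval 0.082 to 0.47). Without CON sample 1 it was 0.36 and passed the test (adjusted p = 8.02e-04, edgeR), while without any other single sample it did not, in a range of 8.02e-04 to 0.241 over all alternatives. Of all genes, 2242 passed without CON sample 1, against 1319 with all samples.

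**Figure D2:**
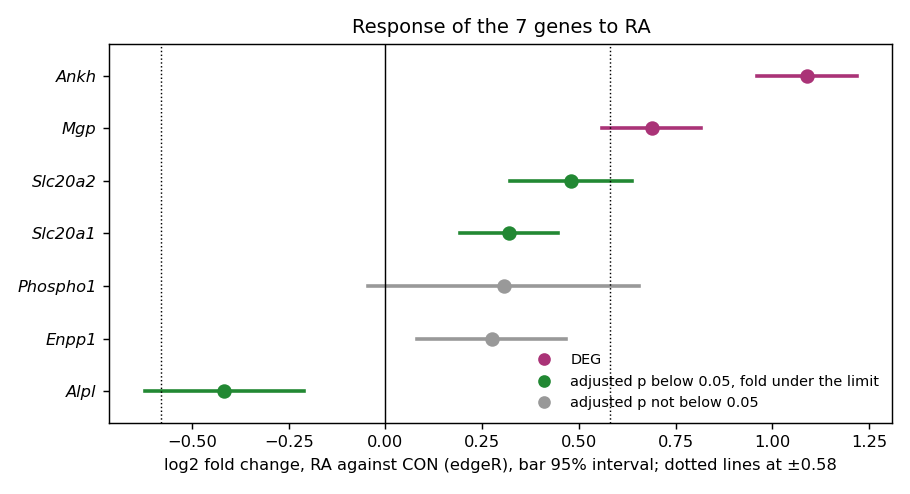
Log2 fold change of each of the 7 genes in RA against CON (points) with its 95% interval (bars), ordered by size, with dotted lines at 0.58 and -0.58. Ankh, at 1.09, and Mgp, at 0.69, are the DEGs, Alpl is the only gene below 0, and the interval of Phospho1 crosses 0.

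Both phosphate transporters rose, and Slc20a1 was the more abundant. Slc20a1 (ENSRNOG00000018567) had 42.6, 41.0 and 39.8 FPKM in the CON samples and 52.3, 50.6 and 52.4 FPKM in the RA samples. Its means of 41.1 ± 1.38 and 51.7 ± 1.02 FPKM gave a log2FC of 0.32 (SE 0.0553, adjusted p = 0.00834, edgeR). The adjusted p was above 0.05 without CON sample 2 (0.31, adjusted p = 0.054, edgeR) or RA sample 3 (0.31, adjusted p = 0.0595), in a range of 4.11e-05 to 0.0595 over all alternatives. In those fits, 721 and 657 of all genes passed, against 1319 with all samples.

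Slc20a2 (ENSRNOG00000019490) had 11.8, 12.4 and 13.3 FPKM in the CON samples and 17.9, 17.3 and 17.6 FPKM in the RA samples. All RA samples were above the highest CON sample, by more than the spread within either group. From 12.5 ± 0.753 to 17.6 ± 0.329 FPKM, the log2FC was 0.48 (SE 0.0693, adjusted p = 0.00356, edgeR; 95% interval 0.32 to 0.64), and it passed the test under all alternatives. The summed level of both transporters was 53.1 to 54.4 FPKM in CON and 67.8 to 70.2 FPKM in RA. Slc20a1 made up 75.0% to 78.3% of this sum in CON and 74.5% to 74.8% in RA.

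Mgp (ENSRNOG00000005695), the inhibitor of calcification, was by far the most abundant of the 7 genes. It had 1761, 1881 and 1723 FPKM in the CON samples and 2769.5, 2958 and 2989.6 FPKM in the RA samples. Its mean rose from 1788 ± 82.4 to 2906 ± 119 FPKM, a log2FC of 0.69 (SE 0.0556, adjusted p = 1.88e-04, edgeR), or 1.61-fold. The lower end of its 95% interval, 0.56, lay just under the fold-change threshold, and Mgp was a DEG under all alternatives, between 0.67 and 0.73. By mean FPKM it was number 24 of all genes in CON and number 14 in RA. Reads of Mgp were 0.116% to 0.127% of all counts in CON and 0.187% to 0.202% in RA.

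In order of level, Mgp was followed in CON by Slc20a1, Ankh, Enpp1, Slc20a2, Alpl and Phospho1. Ankh and Enpp1 were close neighbours in CON, from 33.1 to 33.8 and from 25.4 to 32.1 FPKM. In RA, Ankh was second, between 69.7 and 74.0 FPKM, above Slc20a1, which had at most 52.4. The order of the other genes was the same in RA, and no neighbouring genes overlapped in range in either group.

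Ratios of FPKM within a sample do not depend on how the libraries are scaled, and 5 pairs of the 7 genes were compared in this way. The log2 difference of a ratio between RA and CON restates the changes of both its genes and is not separate evidence. With 3 samples against 3, the exact permutation test cannot go below p = 0.1, which is the value that each of the 5 pairs gave, before and after adjustment over the pairs (exact, two-sided), so none could pass a threshold of 0.05. The ratio of Alpl to Ankh, an enzyme that removes pyrophosphate against a gene of its supply, was 0.203, 0.221 and 0.211 in CON samples 1, 2 and 3 and 0.0797, 0.0774 and 0.0670 in RA samples 1, 2 and 3. Its mean log2 value differed by -1.51 (SE 0.0848) between RA and CON. No sample of one group came near the other group.

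The ratio of Alpl to Enpp1 was 0.214, 0.261 and 0.275 in CON and 0.158, 0.161 and 0.143 in RA, a log2 difference of -0.70 (SE 0.122). Enpp1 to Ankh was close to even in CON, at 0.949, 0.846 and 0.767, and was 0.506, 0.482 and 0.470 in RA, a log2 difference of -0.81 (SE 0.094). The ratio of the phosphatases, Alpl to Phospho1, went from 2.60, 1.99 and 2.01 to 1.50, 1.24 and 1.21, a log2 difference of -0.74 (SE 0.16). These 3 ratios were lower in every RA sample than in every CON sample. Slc20a1 to Slc20a2 was 3.61, 3.30 and 2.99 in CON and 2.92, 2.93 and 2.97 in RA, a log2 difference of -0.16 (SE 0.0779), with CON sample 3 next to the RA samples. Without CON sample 1 this last difference was -0.097, and without CON sample 3 it was -0.23.

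**Figure D3:**
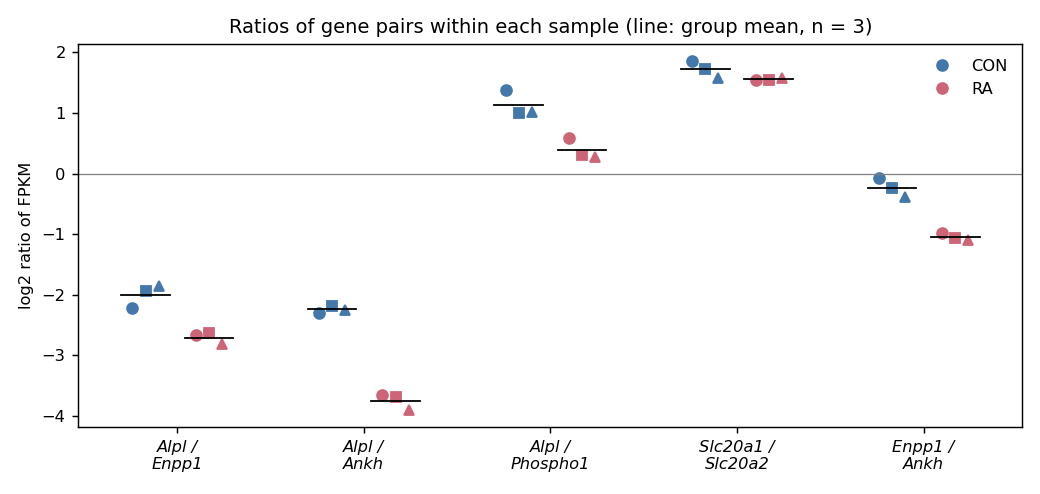
Log2 ratio of the FPKM of 5 gene pairs within each sample. Points are the CON (blue) and RA (red) samples, with a circle, square and triangle for samples 1, 2 and 3, and lines are group means (n = 3). The pairs of Alpl and Ankh are farthest apart, by -1.51 on the log2 scale, and the phosphate transporters are closest.

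The genes whose log2 CPM over the 6 samples was most like that of Ankh, among 11335 tested genes with a mean FPKM of at least 1, were Hsd11b1 (Pearson r = 0.9994), Hmga1 (0.9993) and LOC299282 (0.999). Their log2FC values were 2.57, 1.98 and 1.64. For Mgp they were AABR07067469.1 (0.9993), Twist1 (0.9988) and Ptprg (0.9982), with log2FC values of 0.82, 0.43 and 0.66. The 6 points share their libraries and form 2 groups, and 78 genes had an r above 0.99 with Ankh and 31 with Mgp, so these values are a description of the profiles.

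Further genes of the same pathways were counted in 5 lists, also chosen with earlier results known, in which 51 genes were tested. Their counts stand beside 4.96% DEGs among all genes tested, 2.67% higher and 2.29% lower in RA. Of the 14 genes that handle pyrophosphate, ATP and adenosine outside or inside the cell, 12 were tested and 2 were DEGs, both higher in RA, with a median log2FC of 0.099 over the 12. Entpd3, an ectonucleotidase that breaks down ATP, rose from 2.45 ± 0.167 to 6.76 ± 0.493 FPKM, a log2FC of 1.45 (adjusted p = 9.21e-05, edgeR). Slc29a1, the adenosine carrier ENT1, rose from 43.1 ± 4.05 to 67.3 ± 1.64 FPKM, a log2FC of 0.63 (adjusted p = 0.00197, edgeR), which was 0.55, under the fold-change threshold, without CON sample 1. Entpd1 had 0 reads in all samples, where 3 reads would be 0.0789 to 0.102 CPM. Of 15 other phosphate carriers and genes of phosphate sensing, 9 were tested and 0 were DEGs with edgeR, with DESeq2 or at an unadjusted p below 0.05 with the fold-change threshold, with a median of 0.25. Without CON sample 1 there was 1, Slc37a1 (-0.87, adjusted p = 0.0416, edgeR), named after its values were seen, which had -0.65 (adjusted p = 0.219) with all samples. The most abundant of these, the mitochondrial phosphate carrier Slc25a3, had 229 ± 4.67 and 233 ± 4.87 FPKM and a log2FC of 0.0092 (95% interval -0.11 to 0.13). One gene of the 9 tested in this list passed the adjusted p alone, beside 9.82% of all genes tested. It was the FGF receptor gene Fgfr1, with a log2FC of 0.51, named after its values were seen.

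All 14 genes of matrix vesicles and phospholipid turnover were tested, and 3 were DEGs, all lower in RA, beside 2.29% of all genes tested. The median over the 14 was 0.097. Smpd3, a neutral sphingomyelinase whose loss impairs mineralization, fell from 4.33 ± 0.138 to 0.982 ± 0.0499 FPKM, a log2FC of -2.15 (adjusted p = 1.18e-05, edgeR). Enpp6, a choline-specific phosphodiesterase that frees phosphocholine, had a log2FC of -0.84 (adjusted p = 0.0376, edgeR). Gpcpd1, which splits glycerophosphocholine, lay at the threshold with -0.58 (adjusted p = 0.046, edgeR). Each of these 2 genes stayed a DEG in only 1 of the 6 fits that left out a sample, Enpp6 without CON sample 1 (-1.04) and Gpcpd1 without RA sample 1 (-0.75). Over the other 5 fits Enpp6 lay between -0.91 and -0.72 and Gpcpd1 between -0.63 and -0.49. Neither was a DEG in the limma fits on FPKM (adjusted p 0.0557 to 0.0572 for Enpp6 and 0.0734 to 0.0741 for Gpcpd1, limma). Gpcpd1 also lost the call with no scaling (-0.57) and without the low-count filter (-0.5799). Smpd3 stayed a DEG under all alternatives. Of the 6 annexin genes, 1 passed the adjusted p, beside 9.82% of all genes tested. This gene, Anxa2, rose by 0.48 on the log2 scale, from 943 ± 39.7 to 1332 ± 7.45 FPKM, and it was named after its values were seen.

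A list of mineral inhibitors and genes of the vitamin K cycle, which activates Mgp by gamma-carboxylation, also held Fam20c, a kinase, and its partner Fam20a. Of its 14 genes, 11 were tested and 4 were DEGs, 2 in each direction, beside 4.96% of all genes tested. The 2 DEGs higher in RA were Fam20a and Fam20c, and the median was -0.16. Ucma, the Gla-rich protein of cartilage, fell from 515 ± 23.1 to 152 ± 6.06 FPKM, a log2FC of -1.77 (adjusted p = 4.39e-06, edgeR). It thus moved opposite to Mgp, also a Gla protein. Tnfrsf11b, the gene of osteoprotegerin, fell by 1.04 on the log2 scale (adjusted p = 7.25e-04, edgeR). Fam20c, the kinase of secreted proteins such as osteopontin, rose from 20.0 ± 4.29 to 43.0 ± 1.52 FPKM, a log2FC of 1.09 (adjusted p = 0.00243, edgeR), and its partner Fam20a had 1.24 (adjusted p = 0.00141, edgeR). By adjusted p alone, and named after their values were seen, Vkorc1, the enzyme that recycles vitamin K, fell with a log2FC of -0.55, Nqo1 rose with 0.29 and Pros1 fell with -0.31. Nqo1 lost this when CON sample 2 (0.29), RA sample 2 (0.27) or else RA sample 3 (0.29) was left out, and Pros1 without CON sample 2 (-0.35) or any RA sample (-0.32, -0.33 and -0.28). Ggcx, the carboxylase itself, chosen after its values were seen, had a log2FC of -0.16 (adjusted p = 0.363, edgeR).

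A list of mineral-binding proteins of bone matrix also held Col10a1, which is not one of them. Of its 10 genes, 5 were tested and 3 met the DEG thresholds, all higher in RA, beside 2.67% of all genes tested. Col10a1 is among the 3, but its call is not used, which leaves Spp1 and Ibsp. Spp1, or osteopontin, had a log2FC of 1.88, Ibsp, or bone sialoprotein, of 1.47 and Col10a1, the collagen of hypertrophic cartilage, of 2.16. The last pair were at low levels, at most 1.89 and 1.22 FPKM in any sample. Col10a1 had 18, 11 and 10 reads in the CON samples and 45, 73 and 45 in the RA samples. It thus passed the low-count filter only through RA, and its call as a DEG is not used. The DEG count and the median of this list still include it. The median of the 5 was 1.47, and without Col10a1 it would lie lower, between the values of Col1a1 and Ibsp. Sparc and Col1a1, tested and not passing, had -0.14 and 0.21. Dmp1 was under the filter on low counts, with 2 to 4 reads per CON sample and 5 to 27 per RA sample.

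**Figure D4:**
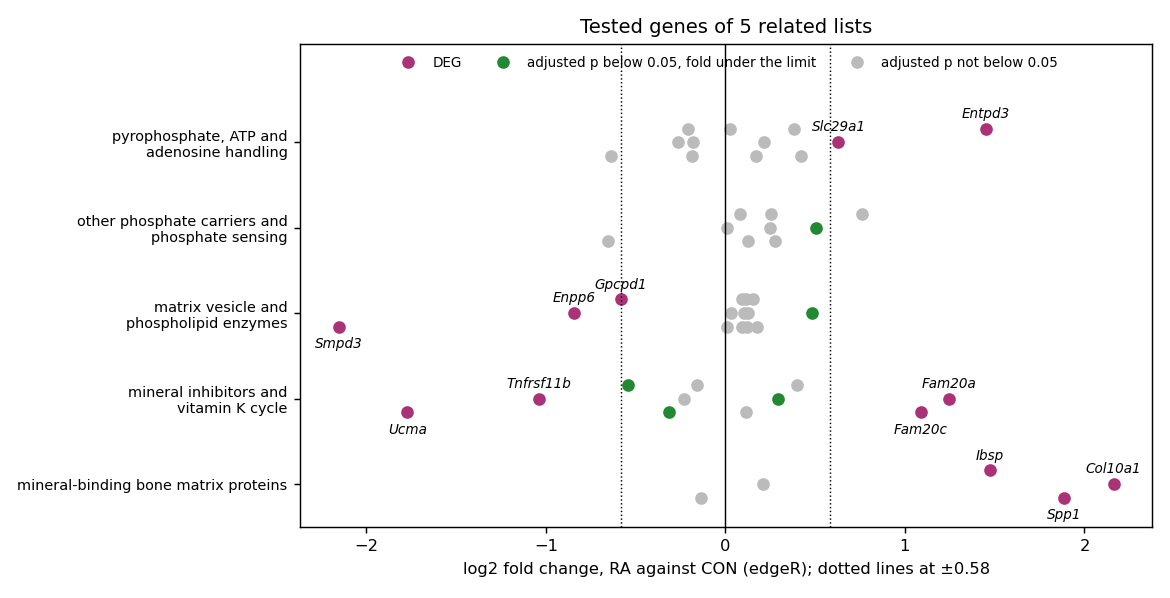
Log2 fold change in RA against CON of the 51 tested genes of 5 related lists, 1 row per list, with points spread vertically for display and dotted lines at 0.58 and -0.58. The 12 DEGs carry their names: 5 are lower in RA, among them Smpd3 at -2.15 and Ucma at -1.77, and 7 are higher, up to Col10a1 at 2.16. Col10a1 passed the low-count filter only through RA. Of all genes tested, 4.96% were DEGs.

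**Figure D5:**
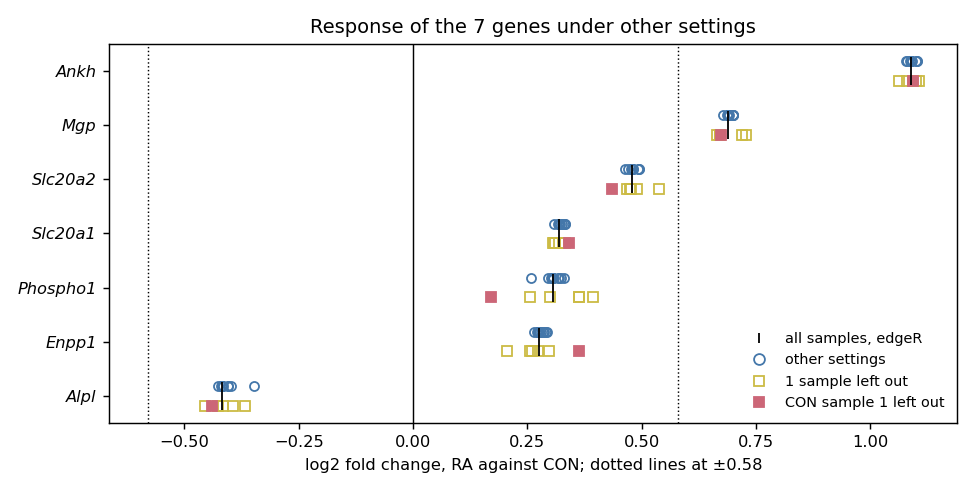
Log2 fold change of the 7 genes with all samples (black bar), under other tools, scalings and filters (blue circles) and with 1 sample left out (yellow squares, and a red square for CON sample 1). No gene changes sign; Phospho1 moves most, from 0.17 to 0.39, and Ankh stays between 1.06 and 1.11.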

How the data were processed

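The members and the gene lists were chosen with earlier results of these data known. For each sample the authors deposited the raw read count of each gene as whole numbers and an FPKM value, which equals the count divided by gene length and by the total count of that sample. The submitters' processing notes list HISAT2, HTSeq 0.13.5 and the build Rnor_6.0. Use of strand is not given in the sources used here, so overlapping antisense genes cannot be told apart. Groups and sample numbers came from the sample titles.

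Counts were normalized by TMM and tested with edgeR 4.0.16 in R 4.3.3 (glmQLFit, glmQLFTest, no covariates, all 6 samples). Genes were kept by filterByExpr with a minimum count of 10; 473 genes had no count. Where a symbol had several identifiers (158 share one), that with the highest mean count was used. Standard errors and 95% intervals were derived from the F statistic. The common biological coefficient of variation was 0.122. Named were the 7 members, the DEGs of 5 related lists (or the most abundant gene where a list had none, and genes at 0), and the 3 genes most correlated with each member that was a DEG. Lists of 8 to 10 markers of chondrocytes, osteoblasts, osteoclasts, macrophages, skeletal muscle, endothelium and fibroblasts were also counted. Alternatives were DESeq2 1.42.0, limma 3.58.1 on log2(FPKM + 0.1), with 1 or 0.01 in place of 0.1, DESeq2 size factors, upper quartile or no scaling, other filters and thresholds, a replicate block and each sample left out. A floor of 3 reads covers counting error only. The statistics were tested on simulated data. Upstream sequences came from RefSeq.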

Additional observations from a re-analysis of the deposited data

How the results depend on the processing

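Ankh, Mgp and Slc20a2 passed the adjusted p and Phospho1 did not under each of the 18 alternatives, and none of the 7 genes changed direction. With 1 sample left out in turn, Alpl lay between -0.46 and -0.37 and passed the adjusted p in 2 of 6 fits, Slc20a1 between 0.31 and 0.34 in 4 of 6, and Enpp1 between 0.21 and 0.36, passing only without CON sample 1. The number of all genes passing also moved, from 1319 with all samples to 2242, 721 and 1316 without CON samples 1, 2 and 3. Without RA samples 1, 2 and 3 it was 693, 680 and 657. Enpp1 also passed with DESeq2 (0.27, adjusted p = 0.0389), with the replicate number as a block in edgeR (0.28, adjusted p = 0.0341) and without adjustment of its p (0.27). Without the fold-change threshold, 5 of the 7 genes and 1319 of all genes were called. With an unadjusted p and the threshold, 1017 genes were called, and in limma fits on log2(FPKM + 1), 434; 2 of the 7 genes were DEGs in either case. The log2(value + 1) scale understates the change of low genes by its construction. In the 5 related lists, 10 to 17 genes were called under the alternatives, beside 434 to 1319 of all genes. In the main result 12 of the 51 tested were called, Col10a1 among them, beside 4.96% of all genes tested.

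The sample titles do not say whether CON and RA samples of the same number were paired. The correlations of deviations from the group mean were 0.0928, -0.0123 and 0.0118 for samples 1, 2 and 3. For samples of unlike number they ran from -0.122 to 0.11. With 3 samples per group this check cannot decide whether the samples were paired. With the replicate block there were 684 DEGs, 2 of them among the 7 genes, and 1595 genes passed the adjusted p, against 1319 without it. Among the 7 genes, the call by adjusted p changed for Enpp1 alone. For the ratios, the replicate block gave p = 0.25 for each pair by an exact sign-flip test, the smallest it can give, with the same differences. Col10a1 gave no value where 3 samples had to reach 1 FPKM. Phospho1 had the fewest reads of the 7 genes, 162 to 264 per sample, and genes under the filter were not tested.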
